A study of Mus musculus with 8 samples.

Results

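The caspases are proteases that carry out programmed cell death and activate inflammatory cytokines, and the apoptosome is the complex that Apaf1 forms to activate caspase 9. Levels of 8 genes, Apaf1, Casp9, Casp2, Casp8, Casp6, Casp1, Casp4 and Casp12, were read from microarrays of sorted mouse dendritic cells. They are the probe sets whose annotation names exactly 1 gene, that gene being in this group, and they make 8 of the 22180 genes measured; each of the 8 has 1 such probe set.

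The cells were CD103+ CD11b+ conventional dendritic cells (cDC), which carry antigen from the gut, sorted from the mesenteric lymph nodes of male C57BL6 mice aged 8 weeks and kept on control chow. In 4 arrays the mice carried the hBcl-2 transgene, human BCL2 driven by the promoter of CD11c, and the other 4 arrays came from wild-type littermates without it. Each array is a pool of 2 to 3 samples, so n = 4 pools a group throughout, and the p-values measure the spread between these pools. The CD11c promoter is active in other CD11c+ cells too, so the transgene need not be limited to the sorted cells. The human transgene is not read by a probe set of its own; mouse Bcl2 averaged 6.86 ± 0.34 in transgenic and 6.11 ± 0.40 in wild-type arrays (SD, n = 4; limma adjusted p = 0.139), so the array does not check the genotype labels.

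In mitochondrial apoptosis, BCL2 stops the release of cytochrome c, which otherwise binds Apaf1 and lets it recruit and activate caspase 9, the initiator that turns on the executioners. Death receptors start another route through caspase 8, and caspase 2 is activated on a platform of its own. Casp1, Casp4 and Casp12 form a neighbouring cluster on chromosome 9 and belong to the inflammatory branch, in which caspase 1 matures interleukins 1 beta and 18 and the product of mouse Casp4 responds to bacterial lipopolysaccharide inside the cell.

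All levels are deposited log2 values, on which a difference of 1 is a doubling. They ran from 2.11 to 13.95, with array medians of 5.04 to 5.15. Transgenic replicate 4 was the least like its group: its mean correlation with the other transgenic arrays was 0.974, where those had 0.979 to 0.983 and the wild-type arrays 0.986 to 0.988. A level was called dim below 5.33, the 95th percentile of 1409 odorant, vomeronasal and trace amine receptor genes. Of 10 listed cDC markers 9 were measured and all 9 lay above that line, though Itgae (CD103; 5.40 in transgenic, 5.66 in wild type) and Itgam (CD11b; 5.58 in transgenic, 5.57 in wild type) lay close to it. The 6 neutrophil markers were all dim.

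None of the 8 genes passed limma's test over all genes at an adjusted p of 0.05, which 1.69% of the 22180 genes did (0.839% higher and 0.848% lower in transgenic cells; 3.17% of the 11078 genes above the dim line), and 3 had an unadjusted p below 0.05, as did 13.2% of all genes. Casp4 and Apaf1 had the lowest folds, with levels 0.591 and 0.630 times those of wild type and adjusted p = 0.0615 and 0.0755 in limma. At a threshold of 0.10 these 2 of the 8 passed, against 3.37% of all genes. The transgenic and wild-type arrays did not overlap for 3 of the 8, Casp4 and Apaf1 on the lower side and Casp6 on the higher. That is 37.5% of them, against 8.94% of all genes. Above the dim line it was 3 of 7 (42.9%), against 14.3% of the 11078 genes there. The 8 were chosen with earlier results of these data known, so these shares are a description. The median log2 fold of the 8 was -0.06, beside 0.00 over all genes, and 5 were negative and 3 positive. In such bulk samples, fewer cells of a type and less RNA per cell cannot be told apart.

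**Figure D1:**
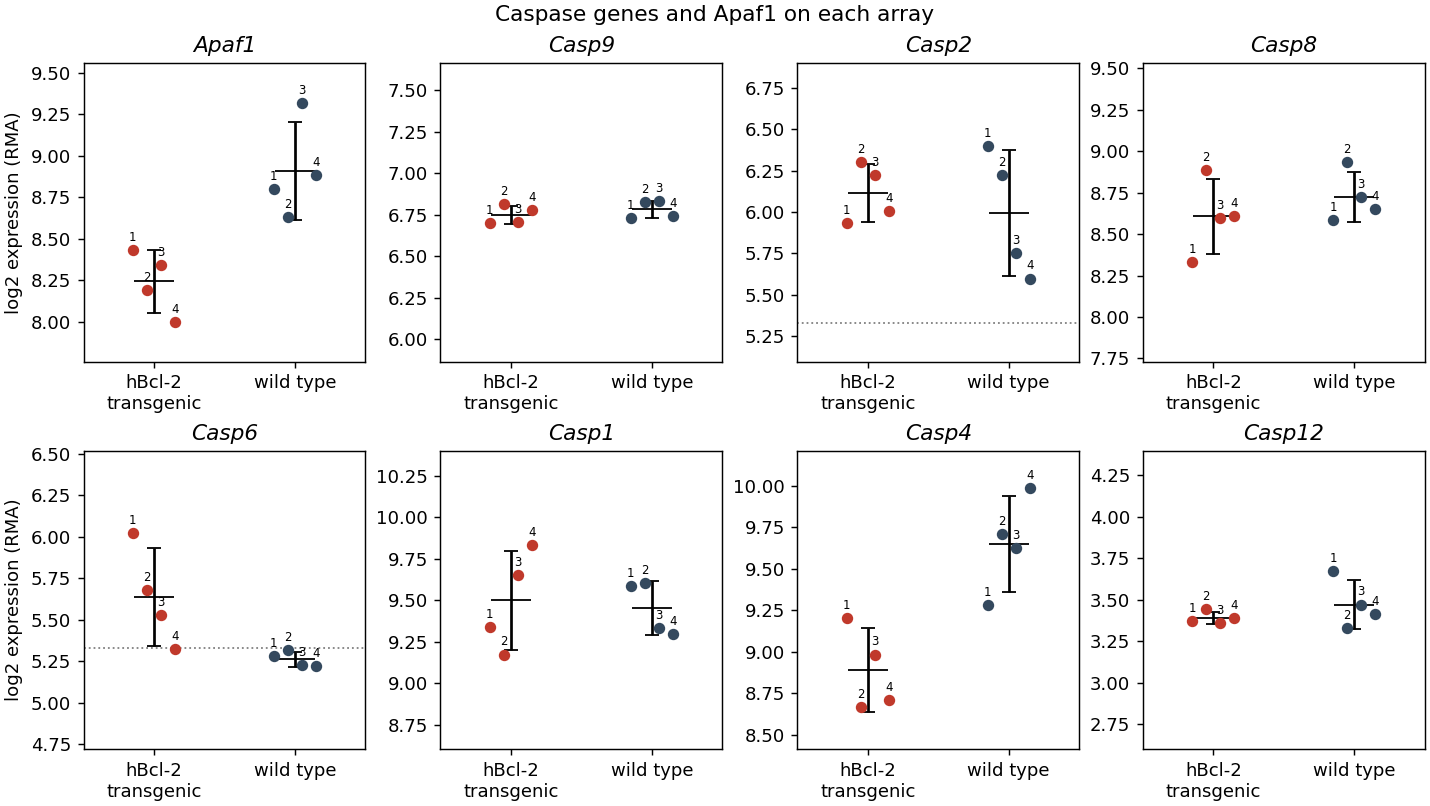
Log2 expression of each gene on each array, hBcl-2 transgenic on the left and wild type on the right of each panel, with replicate numbers, the mean and the SD as bars (n = 4 each); every panel spans the same range and the dotted line is the dim line of 5.33. The 4 transgenic points lie below the 4 wild-type points for Casp4 and Apaf1 and above them for Casp6, and the groups overlap in the other 5 panels.

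Apaf1, the scaffold of the apoptosome, read 8.43, 8.19, 8.34 and 8.00 in transgenic replicates 1 to 4, against 8.80, 8.63, 9.32 and 8.89 in wild-type replicates 1 to 4. Every transgenic array lay below every wild-type array, and the gap between the nearest pair, transgenic replicate 1 and wild-type replicate 2, was about as wide as the SD of the transgenic group. The means were 8.24 ± 0.19 in transgenic and 8.91 ± 0.29 in wild-type arrays (SD, n = 4), a log2 fold of -0.67 (SE 0.16; 95% interval -1.02 to -0.31; limma adjusted p = 0.0755). Without wild-type replicate 3, the brightest, the log2 fold was -0.53 (limma adjusted p = 0.157). Without transgenic replicate 4, the dimmest, it was -0.59 (limma adjusted p = 0.122). When limma was fitted again to only the genes whose mean level was 6 or more, the log2 fold was the same. Its SE was then 0.17 and its adjusted p in limma 0.0461.

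Casp9, the protease that Apaf1 activates, read 6.70, 6.81, 6.71 and 6.78 in transgenic arrays, against 6.73, 6.82, 6.83 and 6.74 in wild-type arrays. The groups overlapped in part: transgenic replicates 1 and 3 lay just below the wild-type range, and wild-type replicates 2 and 3 just above the transgenic range. The log2 fold was -0.03 (SE 0.10; limma adjusted p = 0.935), and its 95% interval, as a linear fold of 0.844 to 1.13, does not reach the 0.630 estimated for Apaf1. Of the apoptosome's partners, the mitochondrial factors and the inhibitors that act on it or on its caspases, 10 of 12 listed genes were measured, 0 rose, 0 fell and 10 did not pass, with a median log2 fold of -0.11. Diablo, which relieves caspases of their inhibitors, was at 0.42 (SE 0.11; limma adjusted p = 0.102), and the arrays of the groups did not overlap. Endog, a mitochondrial nuclease, was at 0.52 (SE 0.26). Xiap, the direct inhibitor of caspase 9, was at -0.55 (SE 0.25; limma adjusted p = 0.390), with 5.48 in transgenic replicate 4 against 6.31 to 6.74 in the other transgenic arrays and 6.62 to 7.13 in wild type. Birc3, an inhibitor of apoptosis protein that also works in NF-kB signalling, was at -0.31 (SE 0.12).

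The initiators of the other routes gave overlapping groups. Casp8, which death receptors activate, read 8.33, 8.89, 8.60 and 8.61 in transgenic arrays, against 8.59, 8.93, 8.72 and 8.65 in wild-type arrays. Only transgenic replicate 1 lay below the wild-type range. The log2 fold of Casp8 was -0.12 (SE 0.14; 95% interval -0.42 to 0.19; limma adjusted p = 0.802). Casp2, the initiator activated with the adaptors Pidd1 and Cradd, read 5.94, 6.30, 6.22 and 6.01 in transgenic arrays, against 6.40, 6.22, 5.75 and 5.60 in wild-type arrays. The transgenic arrays lay within the wild-type range, whose SD of 0.38 was the widest of the 8 genes in that group. The log2 fold of Casp2 was 0.12 (SE 0.18; 95% interval -0.28 to 0.53; limma adjusted p = 0.857), and without wild-type replicate 4 it was -0.0091.

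Around Casp8, 12 of 13 listed death receptor and adaptor genes were measured and 0 passed, with a median log2 fold of 0.00. Fas, the death receptor, had the lowest value at -0.58 (SE 0.18; limma adjusted p = 0.151), with 8.92 to 9.79 in transgenic and 9.85 to 9.98 in wild-type arrays. Cflar, the inactive relative of caspase 8 that restrains it, was at -0.37 (SE 0.12; limma adjusted p = 0.180). Fadd, the adaptor, was at 0.09 (SE 0.12) and Fasl, the ligand of Fas, at 0.18 (SE 0.23). The groups did not overlap for Fas and Cflar, 2 of these 12 (16.7%), against 8.94% of all genes and 14.3% of those above the dim line. Around Casp2, 5 of 6 listed partners were measured and 0 passed. Cradd was at -0.51 (SE 0.23) and Chek1, a cell cycle checkpoint kinase, at 0.56 (SE 0.17; limma adjusted p = 0.144) from dim levels of 4.63 in transgenic and 4.07 in wild-type arrays. Nol3 was at -0.07 (SE 0.11) and Pidd1 at 0.07 (SE 0.12).

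Casp6, an executioner that cleaves nuclear lamins, was the only 1 of the 8 higher in every transgenic array. It read 6.02, 5.68, 5.53 and 5.32 in transgenic arrays, against 5.28, 5.32, 5.23 and 5.22 in wild-type arrays. All 4 wild-type values and transgenic replicate 4 were dim, and the lowest transgenic array lay above the highest wild-type array by under 0.01. The SD was 0.29 in transgenic and 0.04 in wild-type arrays (n = 4). The log2 fold was 0.38 (SE 0.15; 95% interval 0.06 to 0.70; limma adjusted p = 0.276), and its size is uncertain because the wild-type level is near background. Without transgenic replicate 1 it was 0.25 (limma adjusted p = 0.455). Of 12 genes that executioners cut or that dismantle the cell after them, 12 were measured and 0 passed, with a median of -0.06. Parp1, a DNA repair enzyme and classic substrate, was at 0.46 (SE 0.16; limma adjusted p = 0.227), and Dffb, the nuclease that fragments DNA, at 0.44 (SE 0.22). Panx1, a membrane channel opened by executioners, was at -0.33 (SE 0.15) and Sptan1, a spectrin, at -0.22 (SE 0.11).

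**Figure D2:**
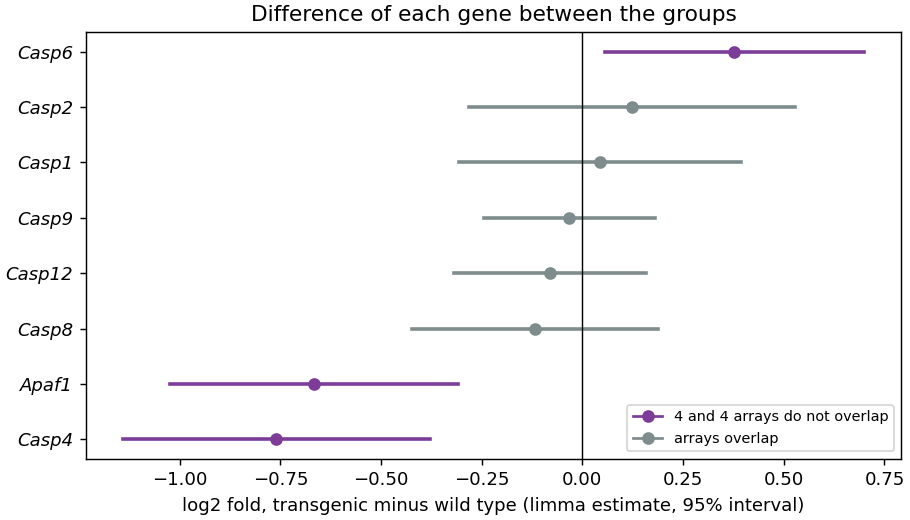
Log2 fold (transgenic minus wild type) of each gene with its 95% interval from limma, sorted by value; purple marks genes whose 4 transgenic and 4 wild-type arrays do not overlap. The unadjusted intervals of Casp4, Apaf1 and Casp6 leave out 0, and those of the other 5 include it.

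Among the inflammatory caspases, Casp4 had the lowest log2 fold of the 8 genes, while Casp1 and Casp12 beside it were near 0. Casp4 read 9.21, 8.67, 8.98 and 8.71 in transgenic arrays, against 9.28, 9.71, 9.63 and 9.99 in wild-type arrays. The groups did not overlap, though transgenic replicate 1 and wild-type replicate 1 nearly met. The means were 8.89 ± 0.25 in transgenic and 9.65 ± 0.29 in wild-type arrays (SD, n = 4), a log2 fold of -0.76 (SE 0.17; 95% interval -1.14 to -0.38; limma adjusted p = 0.0615). Casp4 passed with a robust trended prior (limma adjusted p = 0.0480), when genes under the median level were left out (0.0424) and when genes under a level of 6 were (0.0376). It did not pass without variance moderation (0.213) or without any 1 array (0.0556 to 0.148).

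Casp1, the protease of inflammasomes, read 9.34, 9.17, 9.65 and 9.83 in transgenic arrays, against 9.59, 9.60, 9.34 and 9.30 in wild-type arrays. Transgenic replicates 3 and 4 lay above the wild-type range and transgenic replicate 2 below it. The log2 fold was 0.04 (SE 0.16; 95% interval -0.31 to 0.39; limma adjusted p = 0.949), and it was -0.066 without transgenic replicate 4. Within an array, Casp4 minus Casp1 averaged -0.61 ± 0.41 in transgenic and 0.20 ± 0.41 in wild-type arrays (SD, n = 4). This contrast was chosen after the values were seen, and its difference of -0.80 had an exact two-sided permutation p of 0.0571, where 4 against 4 arrays can reach 0.0286. The 2 genes were therefore not shown to differ in their response. Casp12, the member of the cluster linked to endoplasmic reticulum stress in mice, read 3.37, 3.44, 3.36 and 3.39 in transgenic arrays, against 3.67, 3.33, 3.47 and 3.41 in wild-type arrays. It was dim on all 8 arrays, far under the dim line, and its log2 fold was -0.08 (SE 0.11; limma adjusted p = 0.832).

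The start regions of Casp4 and Apaf1, the pair that lay lower together, are printed to show how unlike they are. They are RefSeq windows of GRCm38.p6 from 250 bases before to 50 after the start, matched by symbol; the upstream of the 2 Casp4 windows lies at chr9:5308599-5308898 on the plus strand and that of Apaf1 at chr10:91082694-91082993 on the minus strand. Capitals mark matches on either strand to GGGNNTTNCC, a form of the NF-kB site, in Casp4 (2 of its 3 matches overlap) and to GGGCGG, the GC box bound by Sp1, in Apaf1.
Casp4: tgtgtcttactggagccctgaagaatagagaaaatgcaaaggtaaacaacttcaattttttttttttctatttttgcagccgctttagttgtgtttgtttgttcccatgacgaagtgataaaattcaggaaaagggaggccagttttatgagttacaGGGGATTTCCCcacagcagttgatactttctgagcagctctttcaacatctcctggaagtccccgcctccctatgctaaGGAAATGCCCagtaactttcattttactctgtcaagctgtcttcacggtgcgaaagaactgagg
Apaf1: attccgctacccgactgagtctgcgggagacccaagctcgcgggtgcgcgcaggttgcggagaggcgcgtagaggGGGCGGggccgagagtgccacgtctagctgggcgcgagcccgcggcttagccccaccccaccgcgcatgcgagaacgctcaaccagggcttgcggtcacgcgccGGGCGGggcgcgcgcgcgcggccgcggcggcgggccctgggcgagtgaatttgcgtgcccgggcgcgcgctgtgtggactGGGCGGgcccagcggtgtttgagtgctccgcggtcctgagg
The Apaf1 window had 74.7% G and C and 46 CpG dinucleotides, more than 98.4% of 32851 such windows, and the Casp4 window 42.0% and 5 CpG. All 8 genes had a window. The second Casp4 window was not searched, so the matches given for the 8 are of 1 window a gene. The NF-kB form was in Casp4 alone of the 8 and in 4.79% of all windows, the GC box in Apaf1, Casp9, Casp2 and Casp6 and in 35.7% of all. GAAANNGAAA, an interferon response element form, and TTTNGCGC, an E2F form, were in none of the 8 (3.44% and 1.38% of all), and TTCNNNGAA, a STAT site form, was in Casp12 alone (8.30% of all). The letters were chosen with these windows in view, and a match is a description of sequence. The NF-kB form was picked with the Casp4 window in view, so its match there was given beforehand and the share of all windows is no test of it.

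Of 20 listed genes of inflammasomes and pyroptosis, the lytic death that inflammatory caspases start through Gsdmd, 18 were measured; 1 rose, 0 fell and 17 did not pass, with a median log2 fold of 0.08. Il18, a cytokine precursor that caspase 1 cleaves, rose by 0.92 (SE 0.18; limma adjusted p = 0.0356), with 7.63, 7.67, 7.68 and 8.40 in transgenic arrays, against 7.11, 6.95, 6.95 and 6.68 in wild-type arrays. Every transgenic array lay above every wild-type array, and transgenic replicate 4 was the highest. Of the 8 fits that leave out an array, Il18 passed in 1, the one without transgenic replicate 4 (log2 fold 0.74, limma adjusted p = 0.0240). It also did not pass after quantile normalization again (0.0651) or without variance moderation (0.178). Aim2, a sensor of cytosolic DNA that engages caspase 1, was at 0.47 (SE 0.12; limma adjusted p = 0.0981). Gbp5, an interferon-induced GTPase of the inflammasome pathway, was at -0.58 (SE 0.13; limma adjusted p = 0.0558), with 8.94 to 9.42 in transgenic and 9.63 to 9.90 in wild-type arrays. Nlrc4, a scaffold for bacterial sensing, was dim and at -0.20 (SE 0.14).

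Regulators that induce inflammatory caspases in macrophages and other cells included 1 that fell. Of 13 listed interferon and NF-kB regulators 11 were measured; 0 rose, 1 fell and 10 did not pass, with a median log2 fold of -0.22 and 9 below 0. Irf1, an interferon-induced transcription factor, fell, with a log2 fold of -0.68 (SE 0.13; limma adjusted p = 0.0330), with 9.32, 8.96, 9.44 and 8.99 in transgenic arrays, against 9.85, 9.79, 9.96 and 9.84 in wild-type arrays. Every transgenic array lay below every wild-type array. Irf1 passed in 1 of the 8 fits that leave out an array, the one without transgenic replicate 3 (limma adjusted p = 0.0303), and its adjusted p was 0.0529 or more in the others. It was 0.120 without variance moderation. Stat2, which carries type I interferon signals, was at -0.85 (SE 0.25; limma adjusted p = 0.141), with 7.21 in transgenic replicate 4, against 8.06 to 8.55 in the other transgenic and 8.80 to 9.12 in the wild-type arrays. Ifngr1, a chain of the interferon gamma receptor, was at 0.34 (SE 0.24) and Irf2 at 0.21 (SE 0.11).

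Of 9 listed genes of endoplasmic reticulum stress, the setting to which Casp12 has been linked, 9 were measured; 1 rose, 0 fell and 8 did not pass. Eif2ak3, the stress sensor kinase PERK, rose by 0.73 (SE 0.13; limma adjusted p = 0.0215), with 7.25, 6.95, 7.37 and 7.11 in transgenic arrays, against 6.49, 6.51, 6.24 and 6.53 in wild-type arrays. The groups did not overlap, and Eif2ak3 passed in 2 of the 8 fits that leave out an array, those without transgenic replicates 2 and 4; the highest adjusted p in the others was 0.0723, without wild-type replicate 3. It was 0.0929 without variance moderation. Dnajb9, a chaperone of the stress response, was at 0.62 (SE 0.14; limma adjusted p = 0.0669). Trib3 was at -0.31 (SE 0.14) and Hspa5, the main chaperone of the compartment, at -0.23 (SE 0.13). Over the 7 pathway lists, 77 of 85 genes were measured and 3 passed (3.90%, against 1.69% of all genes). The arrays did not overlap for 14 of the 77 (18.2%, against 8.94%). Of all genes above the dim line, where most but not all list genes lay, 3.17% passed and 14.3% did not overlap. The pooled shares of the 77 were near these, but the lists differed. The share that did not overlap was 0% for the executioner substrates, 33.3% for endoplasmic reticulum stress (3 of 9) and 36.4% for the interferon and NF-kB regulators (4 of 11).

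**Figure D3:**
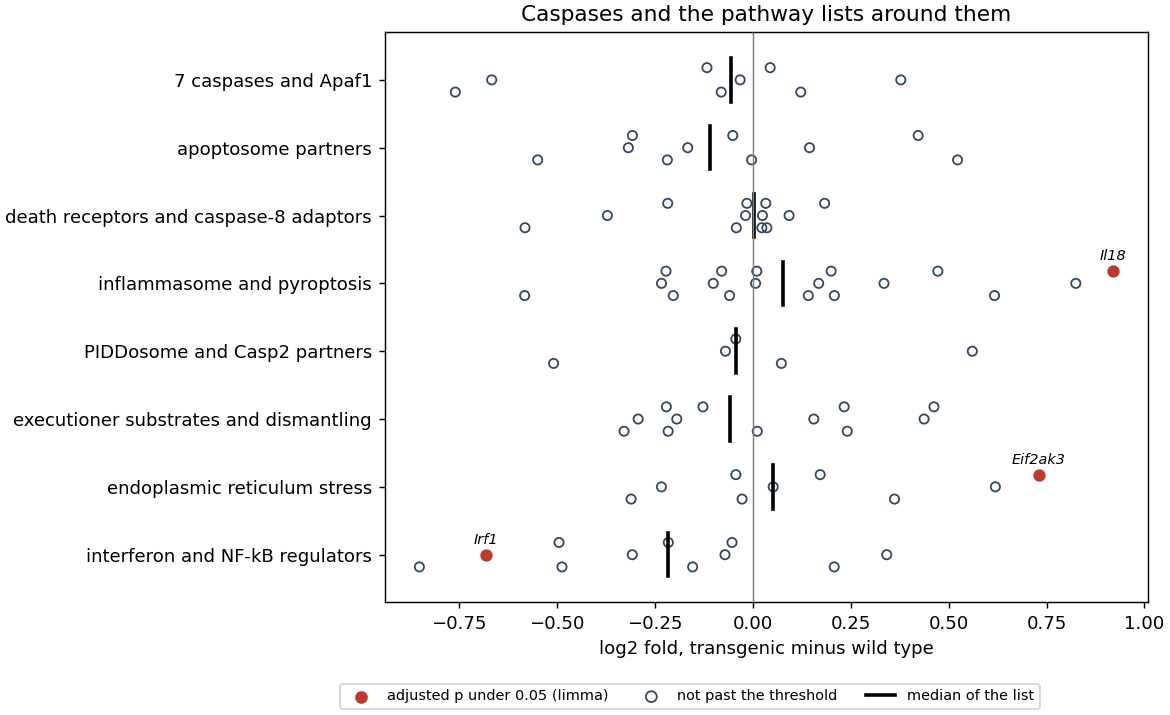
Log2 fold (transgenic minus wild type) of the 7 caspases with Apaf1 and of each measured gene of the 7 pathway lists, filled where limma's adjusted p was below 0.05, with the median of each list as a bar. Il18 and Eif2ak3 lie to the right at 0.92 and 0.73, Irf1 to the left at -0.68, and none of the first row is filled.

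Transgenic arrays lay above their group's mean for 3 to 5 of the 8 genes, and wild-type arrays for 1 (replicate 4) to 6 (replicate 2) of the 8. Transgenic replicate 4 was the lowest of its group for Apaf1 and Casp6 and the highest for Casp1. Pairs of the 8 genes that varied most alike over the 8 arrays were Casp9 with Casp8 (Pearson r = 0.84; 0.82 within groups) and Apaf1 with Casp4 (0.81; 0.33 within groups). The second value shows how much of the likeness of Apaf1 and Casp4 was the difference between the groups. Among all genes, those most like Apaf1 were Plxna4 (r = 0.98), Rapgef6 (0.97) and Synj1 (0.97), and those most like Casp4 were Rap2c (0.98), Rab11a (0.97) and Cenpj (0.96). Casp6 was most like Zfp455 (r = 0.99), Otud7b (0.98) and Gpx4 (0.97). With 8 arrays and 22180 genes, correlations this high arise for each of the 8 genes, and 15 of the 24 genes so chosen were dim, among them all 3 for Casp9, Casp1 and Casp12. Only Rapgef6, a guanine exchange factor, passed the test between groups (log2 fold -0.79, SE 0.14; limma adjusted p = 0.0269), and it also passed in 3 of the 8 fits that leave out an array.

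The mean log2 level of the 7 macrophage markers lay at 6.32 to 6.68 in transgenic and 6.15 to 6.27 in wild-type arrays, and 1 of the 7, Adgre1, a macrophage surface receptor, rose (log2 fold 1.29, SE 0.19; limma adjusted p = 0.0128). Without Adgre1 the list lay at 6.17 to 6.52 in transgenic and 6.15 to 6.27 in wild-type arrays, and Mertk and Fcgr1 were dim. Cd4 (log2 fold 1.18), 1 of 6 measured T cell markers, and Bst2 (0.76), 1 of 6 plasmacytoid markers, also rose. Cd4 passed in all 8 fits that leave out an array and Bst2 in 3 of them. Of the 6 T cell markers 4 were below 0, and the median log2 fold of that list was -0.22. The mean levels of the T, B, NK, plasmacytoid, monocyte, neutrophil and stromal lists overlapped between the groups. The plasmacytoid list barely did, at 6.94 to 7.72 in transgenic and 6.57 to 6.96 in wild-type arrays, with 1 of its 6 markers below 0. Of the 7 measured NK markers 0 were below 0, and 0 passed. The monocyte list lay at 6.58 to 8.22 in transgenic and 6.39 to 7.03 in wild-type arrays, highest in transgenic replicate 2. Of the 9 measured cDC markers 0 passed, and the list lay at 8.90 to 9.33 in transgenic and 9.16 to 9.30 in wild-type arrays. Of these 9, 5 were below 0. Zbtb46, a transcription factor of cDC, was at -0.42 (limma adjusted p = 0.283) and Flt3, their growth factor receptor, at -0.37 (limma adjusted p = 0.350). H2-Ab1, an MHC class II chain, was at -0.25 (limma adjusted p = 0.352). The groups did not overlap for Flt3 and H2-Ab1, 22.2% of the 9, against 14.3% of all genes above the dim line. Sirpa (0.25), Itgax (0.17), Ccr7 (0.07) and Itgam (0.01) were above 0. The part of all these markers in the values of Casp4, Apaf1 and Casp6 was not tested.

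**Figure D4:**
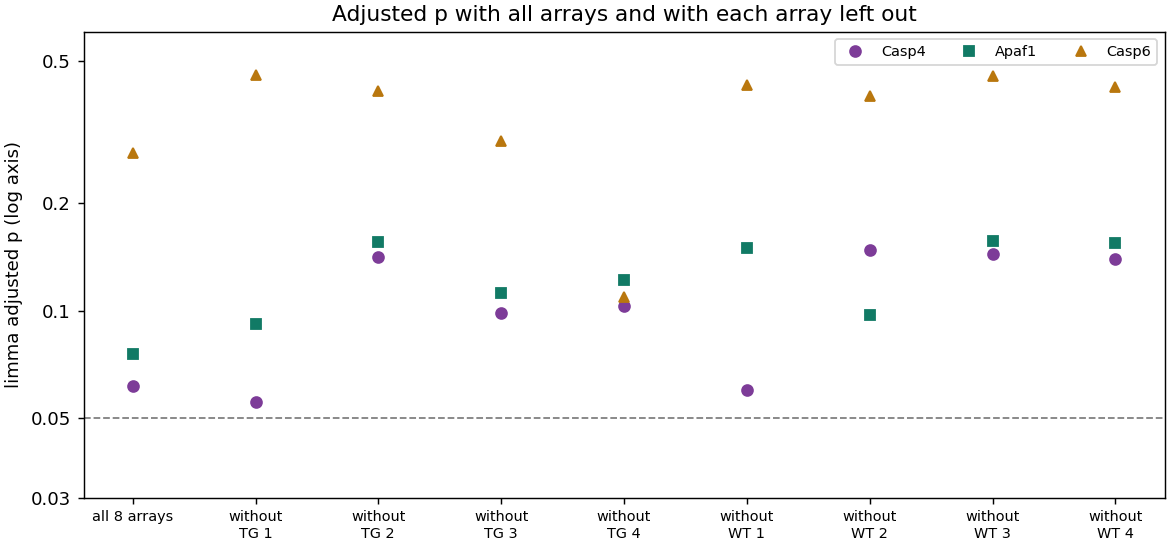
Adjusted p from limma (log axis) for Casp4, Apaf1 and Casp6 with all 8 arrays and with each array left out, transgenic (TG) replicates first and wild-type (WT) ones after; the dashed line is 0.05. No point lies below the line; the lowest is 0.0556, for Casp4 without transgenic replicate 1, and the highest 0.455, for Casp6 without the same array.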

How the data were processed

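Expression was measured on 8 microarrays, 4 of hBcl-2 transgenic and 4 of wild-type cells, from 2.5 ng of amplified, biotin-labelled RNA each, per the labels' protocols. The deposited values are log2 values for each probe set; the submitters' processing notes name RMA and Partek, with no version. The genome build is not given in the sources used here. RMA makes the arrays' distributions alike, so a shift of all genes together would not be seen. Arrays have no read depth, and their number limits precision.

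Of 34390 probe sets, 23521 name 1 gene, 1814 several and 9055 none; the set with the highest mean was kept per gene. The difference was tested in limma 3.58.1 (lmFit, eBayes; R 4.3.3), with Benjamini-Hochberg adjustment over 22180 genes and no filter. Simulated data of this comparison (200 of 22180 genes changed) gave 28.4% of 1.5-fold, 72.2% of 2-fold and 92.0% of 3-fold changes recovered, and 3.81% false calls. The simulated noise was normal, independent between genes and of 1 SD per gene for both groups. In the data the SD was higher in transgenic arrays for 62.1% of genes, so these rates may not hold for them. Named genes are the 8, list members past the threshold or with the 2 highest and 2 lowest statistics, markers, and the 3 genes most correlated with each of the 8. Members and lists were chosen with earlier results of these data known. Figures used matplotlib 3.10.9 in Python 3.11.15.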

Additional observations from a re-analysis of the deposited data

How the results depend on the processing

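The 8 genes were refitted with other variance moderation, filters, normalizations, probe set rules, weighted arrays, a block for the replicate number and each array left out. Casp4, Apaf1, Casp6, Casp8, Casp9 and Casp12 kept their sign in every one of these fits. Casp4 passed in 3 of 19 (log2 fold -0.76 each; robust trended prior, genes at or above the median gene, mean of at least 6) and Apaf1 in 1 (-0.67, mean of at least 6). The number of the 8 that passed was then 1, 1 and 2, and 2 at an adjusted p of 0.10. The sign of Casp1 turned with array weights (-0.033). Without each array in turn, log2 folds ran from -0.88 to -0.65 for Casp4, -0.76 to -0.53 for Apaf1, 0.25 to 0.48 for Casp6, -0.066 to 0.15 for Casp1, -0.0091 to 0.26 for Casp2, -0.21 to -0.03 for Casp8, -0.05 to -0.02 for Casp9 and -0.13 to -0.01 for Casp12. The count over all genes, 374, was 747 at 0.10, 35 without variance moderation, 187 with the replicate block, and 106 to 379 without each array. The causes were not tested. With the block the calls of Il18 (adjusted p = 0.0972), Irf1 (0.0645), Eif2ak3 (0.0778), Bst2 (0.0642) and Rapgef6 (0.0745) were lost, while Cd4 and Adgre1 passed. Arrays of the same number deviated from their group means with correlations of -0.032, -0.028, 0.079 and -0.018. The labels do not say whether equal numbers mark a shared litter or day, and these correlations cannot decide it. The replicate block gave adjusted p = 0.147 for Casp4 and 0.0964 for Apaf1, and it called none of the 8. Casp12 could not be fitted under the filters on dim genes, nor Casp6 with a mean of at least 6. Dim signal limits what is known of Casp12 and of Casp6 in wild type.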
